A study of Mus musculus with 24 samples.

Results

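The MAP kinase phosphatases described here are the products of Dusp1, Dusp2, Dusp4, Dusp5, Dusp6, Dusp8, Dusp10 and Dusp16, 8 of the 21896 protein-coding genes in the RefSeq table of mouse assembly GRCm38.p6. An ATAC-seq peak was assigned to one of them where its summit lay inside the gene or had it as the nearest gene body, at most 50 kb away. This gave 1116 of the 1274891 peaks deposited for the series, or 0.0875%. Overlapping peaks of different libraries were merged, and 70 of the 80598 regions found in at least 2 libraries belonged to the 8 genes. These 70 regions held 1104 of the 1116 peaks, and the other 12 regions were each found in 1 library. No peak lay inside more than 1 gene body.

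ATAC-seq marks open chromatin with a transposase that cuts accessible DNA. It was applied to bone marrow-derived macrophages of male C57Bl/6 mice in 4 groups of 6 libraries. These were macrophages of streptozotocin-treated diabetic mice stimulated with lipopolysaccharide (LPS, 100 ng/mL) together with interferon gamma (10 ng/mL), macrophages of untreated wild-type control mice given the same stimulus, unstimulated macrophages of diabetic mice and unstimulated macrophages of control mice. Streptozotocin destroys the insulin-producing beta cells, so the mice model insulin deficiency, and the macrophages themselves were grown outside the animal. The series description states that the cells of each mouse sample were divided between the stimulated and the unstimulated state, so both states come from the same 12 mouse samples, but replicate numbers are not said to link the divided samples, and the tests treat the libraries as unpaired. The duration of stimulation is uncertain, because the protocol gives a culture time only for cells exposed to another cytokine, IL-1β.

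LPS, a bacterial cell wall component sensed by Toll-like receptor 4, activates the MAP kinases ERK, JNK and p38, which switch on inflammatory genes. Dual-specificity phosphatases turn these kinases off by removing phosphate from both the threonine and the tyrosine of their activation loop. Many of their genes are themselves induced by the kinases they inactivate, which makes a negative feedback loop. In macrophages the best known of them is Dusp1, which limits the output of inflammatory cytokines after LPS. The products of Dusp1, Dusp2, Dusp4 and Dusp5 act in the nucleus, that of Dusp6 acts on ERK in the cytoplasm, and those of Dusp8, Dusp10 and Dusp16 act mainly on JNK and p38.

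The lists held 46503 to 58016 peaks in stimulated diabetic, 41385 to 54960 in stimulated control, 49837 to 61861 in unstimulated diabetic and 51425 to 60610 in unstimulated control libraries. Stimulated lists, above all those of control mice, were shorter, and lists shortened to equal length were tested as an alternative. No source used here gives read totals, so the depth behind a missing peak is unknown, and a missing peak means only that the region was below the caller's threshold. Of 8 macrophage marker genes, 6 (among them Csf1r, Adgre1, Cd68, Itgam and Mertk) had a region found in all 24 libraries, against 0 of 6 B cell and 0 of 6 T cell markers, 1 of 6 neutrophil markers (Camp), 1 of 6 erythroid markers (Klf1) and 4 of 6 stromal and endothelial markers (Pdgfrb, Cdh5, Pecam1 and Kdr). Elane, Ly6g, Cd79a, Cd79b, Cd3g, Cd8a, Gata1 and Hba-a1 had 0 peaks in every library. Summed over the macrophage list, libraries held 27 to 41 peaks (median 35.5) in stimulated diabetic, 26 to 41 (median 28.5) in stimulated control, 35 to 46 (median 41.5) in unstimulated diabetic and 36 to 43 (median 38) in unstimulated control macrophages. Over the neutrophil list they held 2 to 4 (median 2) in stimulated diabetic, 1 to 3 (median 2) in stimulated control, 3 to 5 (median 4.5) in unstimulated diabetic and 3 to 5 (median 3) in unstimulated control macrophages. Over the stromal and endothelial list they held 16 to 29 peaks in stimulated diabetic, 18 to 23 in stimulated control, 18 to 25 in unstimulated diabetic and 18 to 27 in unstimulated control macrophages, and the part of other cells in the results was not tested.

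All 8 genes carried peaks in every group. Dusp5 had the most, 9.29 ± 2.2 per library (SD, n = 24), followed by Dusp6 with 7.58 ± 1.06, Dusp1 with 6.58 ± 1.38 and Dusp4 with 6.21 ± 2.04. Dusp10 had 5.50 ± 0.978 and Dusp16 5.42 ± 1.28. Dusp2 had 3.17 ± 0.565 and Dusp8 2.75 ± 0.944. Neighbours in this order differed by less than the larger of their SDs, except Dusp16 and Dusp2. The genes differ in the length of chromosome whose peaks are assigned to them, from 20.96 kb at Dusp2 to 105.27 kb at Dusp16. Per 10 kb of that length Dusp2 came first with 1.51 peaks and Dusp16 last with 0.515.

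Of the 70 regions, 21 (30%) were found in all 24 libraries, against 28.3% of all regions. Every gene had at least 1 such region. Dusp6 had 6 of its 10, Dusp5 4 of 15, Dusp1 3 of 11, Dusp10 3 of 8, Dusp4 2 of 11, Dusp2 1 of 2, Dusp8 1 of 4 and Dusp16 1 of 9. Another 8 regions were found in 22 or 23 libraries and 14 in 2 to 4. Inside the gene bodies lay 20 of the 70, and the median width was 394 bp, against 417 bp for all regions.

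The gene starts were open in nearly every library. A region found in all 24 libraries had its summit within 1 kb of the start of Dusp1 (chr17:26507997-26509228), Dusp2 (chr2:127335181-127336659), Dusp5 (chr19:53528711-53529593), Dusp6 (chr10:99262830-99263470), Dusp8 (chr7:142094840-142095778) and Dusp10 (chr1:184033347-184034622). Dusp4 had one 0.394 kb outside the lower-coordinate end of its gene body (chr8:34806920-34807663), the end that distances of Dusp4 are counted from, because the strand of this gene was not used here and either end could be its start. For Dusp8 and Dusp16 distances are counted from the start in the RefSeq promoter table, which lies inside the gene body. The start region of Dusp16 (chr6:134792187-134793019) was found in 23 of 24 libraries and was missing from 1 stimulated control library.

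Within each library, the peak's fold enrichment over the local background, a value given by the authors' peak caller, was turned into a percentile among the 22770 regions found in all 24 libraries. By this measure the start region of Dusp10, which encodes a JNK and p38 phosphatase, was the strongest of the 21, with a median percentile of 79.6 over the 24 libraries and a range of 60.5 to 93.7. The start region of Dusp5, whose product acts on nuclear ERK, had a median of 73.3. That of Dusp6, the cytoplasmic ERK phosphatase, had a median of 47.6, that of Dusp8 42 and that of Dusp2 30.0. That of Dusp1 had a median of 1.68, and the region at the lower-coordinate end of Dusp4 one of 9.14. The measure matters for this order: ranked by the −log10 q-value of the same peaks, Dusp6 had a median percentile of 91.6, Dusp10 98.9 and Dusp1 13.1. The start region of Dusp1 is 1232 bp wide and lies at a gene of 2.88 kb, and the percentile describes enrichment over local background, not the extent of open chromatin. Away from the starts, the highest median percentile at Dusp6 was 67.1, for a region 12.2 kb upstream (chr10:99250576-99251312). The highest at Dusp10 was 63.3, for one 50.7 kb downstream of the start of Dusp10 (chr1:184084728-184085314), and the highest at Dusp1 was 48.6, for one 10.9 kb downstream of the start of Dusp1 (chr17:26497189-26497979).

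Promoter sequences, 250 bases before the gene start, were read from RefSeq (GRCm38.p6) for the 7 genes with an entry. They were searched on both strands for letters bound by factors of this response. The cAMP response element (CRE), TGACGTCA, which CREB and ATF proteins bind, occurred in 1.55% of 32851 mouse promoters of this length and in those of Dusp1 and Dusp8. It lay once before Dusp1, 143 to 136 bases upstream of the start, and occurred at 2 places before Dusp8, 107 to 100 and 63 to 56 bases upstream. The CArG box, which serum response factor binds, occurred in 1.47% of promoters, and Dusp5 held 2 adjacent copies 82 to 63 bases upstream. The promoters of Dusp1 and Dusp8, whose start regions rose in rank after stimulation, and those of Dusp5 and Dusp10, whose start regions ranked highest, are shown 5′ to 3′ on the strand of the gene, with capitals marking the CRE in Dusp1 and Dusp8 and the CArG boxes in Dusp5. No capitals appear in Dusp10, which held neither.
Dusp1 promoter, chr17:26508473-26508722, minus strand: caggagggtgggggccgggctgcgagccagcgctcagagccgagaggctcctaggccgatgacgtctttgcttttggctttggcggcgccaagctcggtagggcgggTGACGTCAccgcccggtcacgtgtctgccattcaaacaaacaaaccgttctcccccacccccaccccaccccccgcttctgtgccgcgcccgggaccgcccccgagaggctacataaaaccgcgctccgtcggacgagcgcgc
Dusp8 promoter, chr7:142095285-142095534, minus strand: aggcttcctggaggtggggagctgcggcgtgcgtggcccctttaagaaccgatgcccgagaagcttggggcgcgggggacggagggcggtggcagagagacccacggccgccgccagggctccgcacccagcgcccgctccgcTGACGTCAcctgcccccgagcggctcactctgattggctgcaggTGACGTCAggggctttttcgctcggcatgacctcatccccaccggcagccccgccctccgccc
Dusp5 promoter, chr19:53528895-53529144, plus strand: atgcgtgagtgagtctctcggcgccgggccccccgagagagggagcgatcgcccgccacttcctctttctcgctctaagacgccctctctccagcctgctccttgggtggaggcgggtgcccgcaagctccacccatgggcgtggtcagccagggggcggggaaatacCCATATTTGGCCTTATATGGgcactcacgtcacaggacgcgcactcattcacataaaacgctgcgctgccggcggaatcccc
Dusp10 promoter, chr1:184034131-184034380, plus strand: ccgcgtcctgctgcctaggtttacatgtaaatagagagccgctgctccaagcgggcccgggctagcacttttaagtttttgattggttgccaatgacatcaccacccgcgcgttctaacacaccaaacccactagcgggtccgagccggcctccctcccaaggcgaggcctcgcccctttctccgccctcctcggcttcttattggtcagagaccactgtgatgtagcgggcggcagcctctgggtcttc
All 250 bases of each of these 4 windows lay in regions found in all 24 libraries. The windows held 28 CpG pairs in Dusp1, 25 in Dusp8, 21 in Dusp5 and 17 in Dusp10, against a median of 6 over all promoters. The CRE contains a CpG pair, so its share over all promoters is not a like background for these windows.

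Other letters were commoner. The first 5 bases of the CRE, TGACG, occurred in 17.8% of promoters and before Dusp1, Dusp5, Dusp8 and Dusp16. The E-box CACGTG occurred in 6.02% and before Dusp1 and Dusp2, and the PU.1 core GAGGAA in 23.3% and before Dusp5 and Dusp6. The AP-1 site TGANTCA (6.75% of promoters), the interferon-activated GAS element TTCNNNGAA (7.02%), the ISRE core GAAANNGAAA (2.98%) and the NF-κB site (7.25%) had no match in the 7 windows. The CRE letters contain TGACG, so these matches overlap. TGACG and CACGTG also contain a CpG pair, and the same limit holds for their shares. A match describes letters and not a bound site.

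**Figure D1:**
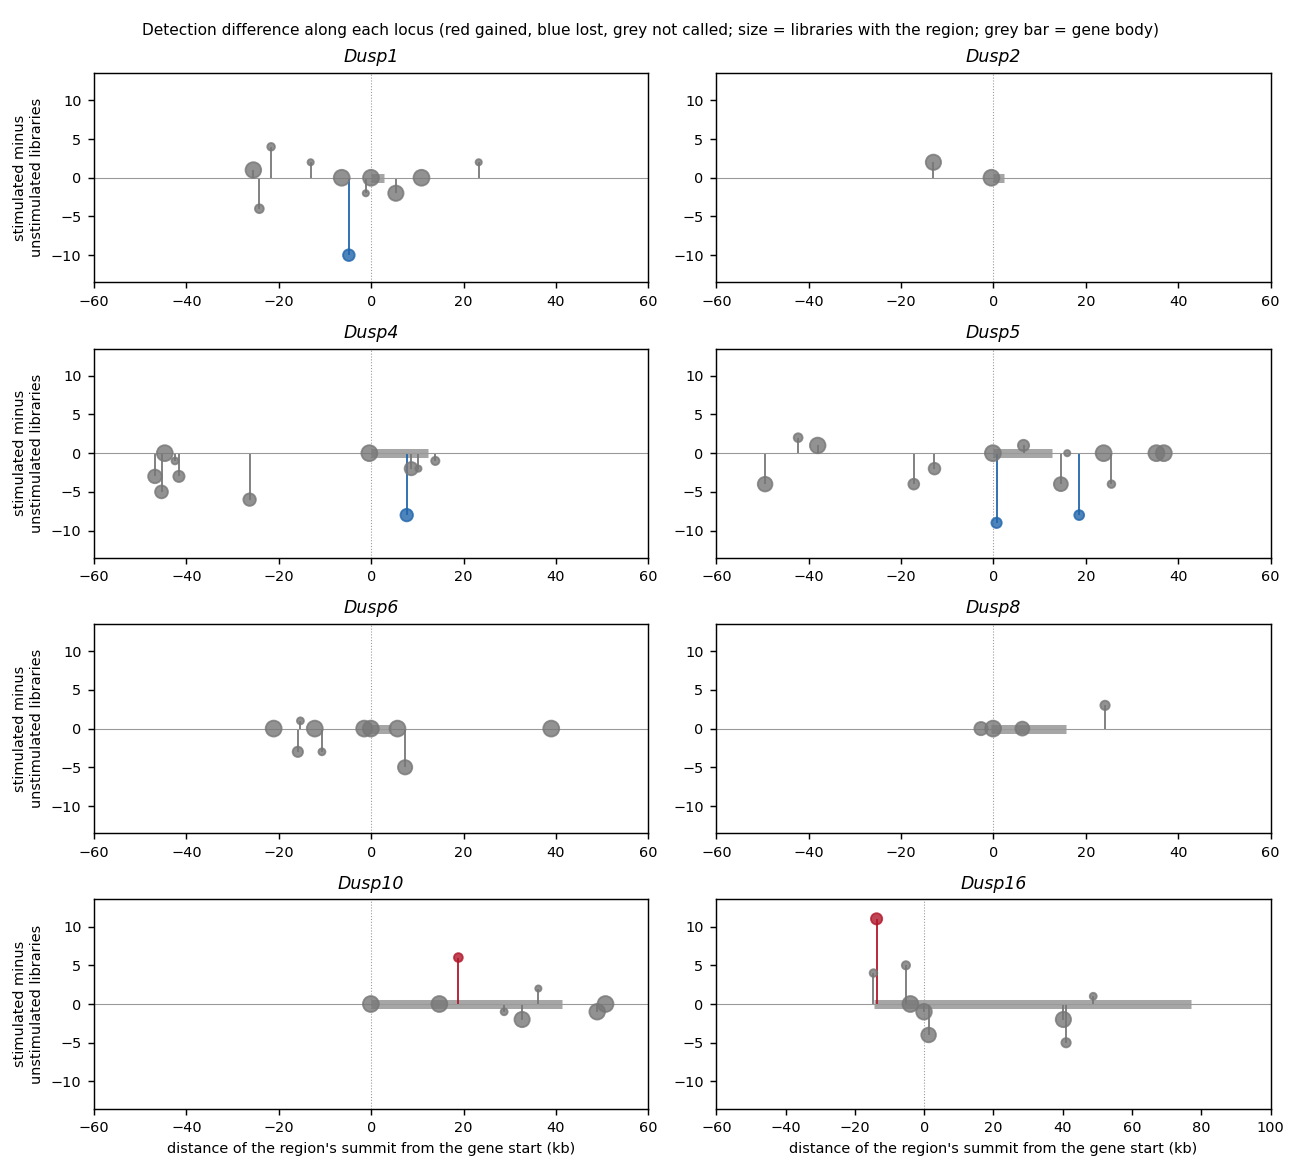
Difference in detection along each locus. The x axis is the distance of each region's summit from the gene start in kb (positive in the direction of transcription; for Dusp4 from the lower-coordinate end), and the y axis is the number of stimulated minus unstimulated libraries with a peak, out of 12 each. Point size grows with the number of libraries holding the region, red points were gained, blue points lost and grey points not called, and the grey bar is the gene body. The Dusp16 region at 13.7 kb upstream stands highest, at 11 more stimulated libraries, and most regions near the gene starts sit at 0.

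The first comparison asked where chromatin at these genes opens or closes when macrophages meet LPS and interferon gamma. With diabetic and control libraries pooled, 12 stimulated against 12 unstimulated, the gene for the JNK and p38 phosphatase Dusp16 gained a region, and so did Dusp10. Dusp1 and Dusp4 lost 1 region each, and Dusp5 lost 2. No region of Dusp2, Dusp6 or Dusp8 was called. Only 25 of the 70 regions were detected in a number of libraries that could give an unadjusted p under 0.05, and of these 2 were gained and 4 lost in a two-sided Fisher's exact test with Benjamini-Hochberg adjustment over all such regions of the genome, at a threshold of 0.05. Shares of 8% gained and 16% lost stand beside a background of 9.19% gained and 18.9% lost among 31219 tested regions, so these genes as a group showed about as many calls as the rest of the genome. With lists shortened to equal length, the background split moved to 3165 gained and 3833 lost, against 2868 and 5901 with full lists.

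The Dusp16 region (chr6:134806188-134806611) had a peak in 5 of 6 stimulated diabetic, 6 of 6 stimulated control, 0 of 6 unstimulated diabetic and 0 of 6 unstimulated control libraries. The only stimulated library without it was 1 of a diabetic mouse, so the states barely overlapped (adjusted p = 0.000303, Fisher's exact test). It lies 13.7 kb upstream of the start used for the promoter, but inside the annotated gene body, 703 bp from its outer end. A neighbouring region 5.26 kb upstream was likewise found in 5 stimulated and 0 unstimulated libraries, which missed the threshold (adjusted p = 0.0967). Dusp16, also called MKP-7, encodes a phosphatase that prefers JNK and p38.

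Dusp10 encodes MKP-5, which also acts on JNK and p38. Its gained region (chr1:184052873-184053376) lies within the gene, 18.9 kb from the start. A peak was found in 5 of 6 stimulated diabetic, 1 of 6 stimulated control, 0 of 6 unstimulated diabetic and 0 of 6 unstimulated control libraries (adjusted p = 0.0489, Fisher's exact test). The call thus rests mostly on stimulated diabetic libraries, and it was lost under all 5 alternatives that change this region's test (adjusted p of 0.0938 with lists of equal length, 0.126 with adjustment over all regions and 0.0653 with the replicate block, and too few libraries to be tested with the other 2).

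Dusp1 encodes MKP-1, the nuclear phosphatase of p38, JNK and ERK. Its lost region (chr17:26513060-26513424) lies 4.83 kb upstream and had a peak in 1 of 6 stimulated diabetic, 0 of 6 stimulated control, 6 of 6 unstimulated diabetic and 5 of 6 unstimulated control libraries (adjusted p = 0.00176, Fisher's exact test). Only 1 stimulated library had it and only 1 unstimulated library lacked it. A broader neighbour 6.38 kb upstream was found in all 24 libraries, so the loss concerned a part of the upstream stretch. The start region of Dusp1 was also found in all 24.

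Dusp5 encodes a nuclear phosphatase specific for ERK. Its first lost region (chr19:53529616-53529965) lies inside the gene, 0.683 kb from the start and directly beside the start region, and was found in 0 of 6 stimulated diabetic, 0 of 6 stimulated control, 5 of 6 unstimulated diabetic and 4 of 6 unstimulated control libraries (adjusted p = 0.00388, Fisher's exact test). The second (chr19:53547596-53547853), 18.6 kb from the start and beyond the end of the gene, was found in 0 of 12 stimulated libraries, in 4 of 6 unstimulated diabetic and in 4 of 6 unstimulated control libraries (adjusted p = 0.0101). No stimulated library had either region. The region beside the start was no longer called with lists of equal length, with peaks of −log10 q of at least 5, or where peaks had to cover at least 50% of a region, and the second not with lists of equal length.

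Dusp4 encodes MKP-2, a nuclear phosphatase related to Dusp1. Its lost region (chr8:34815163-34815915) lies inside the gene, 7.70 kb from its lower-coordinate end, and was found in 2 of 6 stimulated diabetic, 1 of 6 stimulated control, 5 of 6 unstimulated diabetic and 6 of 6 unstimulated control libraries (adjusted p = 0.0184, Fisher's exact test). Here the states overlapped, with 3 stimulated libraries holding the peak and 1 unstimulated library lacking it. Of the other 10 Dusp4 regions, none was found in more stimulated than unstimulated libraries, and those differences did not pass the test with full lists.

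Dusp6, the feedback phosphatase of ERK in the cytoplasm, had 6 constant regions and no call. Its most variable region, 7.35 kb from the start, had a peak in 7 of 12 stimulated libraries and in all 12 unstimulated ones (adjusted p = 0.0967, Fisher's exact test). With lists of equal length it was called lost (6 against 12 libraries, adjusted p = 0.0471), and likewise with peaks of −log10 q of at least 5 (6 against 12, adjusted p = 0.0442). Dusp2, which encodes the nuclear phosphatase PAC-1, had only 2 regions, in 24 and 22 libraries. The second, 13 kb upstream, was called gained with lists of equal length (12 stimulated against 3 unstimulated libraries, adjusted p = 0.00340, Fisher's exact test). Dusp8 had 4, of which that 2.69 kb upstream was found in 6 of 6 stimulated diabetic and 2 of 6 stimulated control libraries, against 4 of 6 in each unstimulated group.

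**Figure D2:**
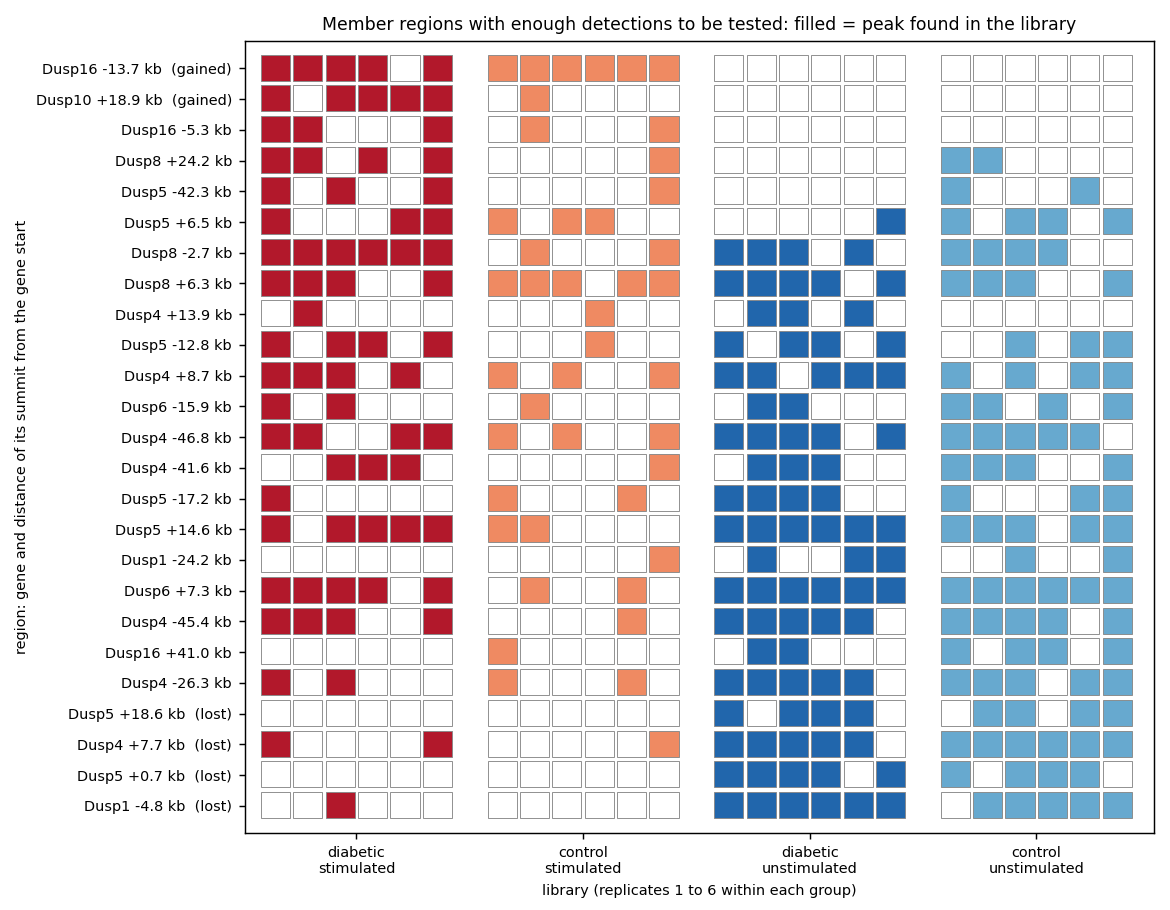
Detection of the 25 regions that could be tested, one row per region, named by gene and by the distance of its summit from the gene start in kb (negative upstream). Each column is a library, in groups of 6, and a filled square marks a peak. The gained Dusp16 and Dusp10 regions at the top are filled only among stimulated libraries, and both lost Dusp5 regions near the bottom only among unstimulated ones.

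Within each phenotype, control macrophages gained the Dusp16 region (6 of 6 stimulated against 0 of 6 unstimulated libraries, adjusted p = 0.0173) and lost the Dusp1 region (0 of 6 stimulated against 5 of 6 unstimulated, adjusted p = 0.0422) and the Dusp4 region (1 of 6 stimulated against 6 of 6 unstimulated, adjusted p = 0.0422, Fisher's exact test). These were 3 calls among 13 tested regions, beside a background of 8.41% gained and 27.5% lost. With lists of equal length the background held 1464 gained and 1770 lost regions in control macrophages, against 1018 and 3331 with full lists, and the Dusp1 region (0 of 6 stimulated against 4 of 6 unstimulated) could then no longer be tested. In diabetic macrophages 0 of 8 tested regions were called, with 4 at an unadjusted p under 0.05 and a lowest adjusted p of 0.0559, beside a background of 5.47% gained and 3.44% lost. The 4 were the Dusp16 and Dusp10 regions (5 stimulated against 0 unstimulated libraries each), the Dusp1 region (1 against 6) and the Dusp5 region beside the start (0 against 5). Each had an unadjusted p of 0.0152, the same as the called Dusp1 and Dusp4 regions in control macrophages (Fisher's exact test). With peaks of −log10 q of at least 5, the diabetic background held 373 gained and 380 lost of 9181 tested regions, against 641 and 403 of 11708. With lists of equal length it held 1573 gained and 1295 lost of 8881 tested regions, and 4 of 10 tested member regions were called. The calls were losses at Dusp1 (4.83 kb upstream, 0 against 6 libraries, adjusted p = 0.0188), Dusp5 (49.4 kb upstream, 0 against 6, adjusted p = 0.0188) and Dusp4 (7.70 kb, 0 against 5, adjusted p = 0.0469) and a gain at Dusp2 (13 kb upstream, 6 against 1, adjusted p = 0.0469). All adjusted p-values are from Fisher's exact test. A call in one phenotype and none in the other is not a difference between them, and the test of that difference is given further on.

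The second measure was the rank of regions found everywhere. Of the 21, 3 ranked higher and 5 lower in stimulated than in unstimulated libraries (limma on normal scores of the rank of the fold, adjusted over 22770 regions), shares of 14.3% and 23.8% beside backgrounds of 14.7% higher and 15.7% lower. The start regions of Dusp1 and Dusp8 were among those that rose, and the region at the lower-coordinate end of Dusp4 among those that fell. Effects are in units of the normal score, in which the spread over all regions of a library is about 1.

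The Dusp1 start region had a percentile of 0.885 to 9.94 (median 4.22) in stimulated diabetic, 2.30 to 12.7 (median 5.12) in stimulated control, 0.191 to 1.32 (median 0.957) in unstimulated diabetic and 0.108 to 1.8 (median 0.685) in unstimulated control libraries. Most stimulated libraries lay above every unstimulated one, with overlap at the lowest stimulated values. The effect was 0.79 ± 0.16 (SE, limma adjusted p = 0.000298). It stayed among the weakest of the always-found regions in both states, and the call was lost when plain percentiles replaced normal scores.

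The Dusp8 start region, whose gene encodes a JNK and p38 phosphatase, had medians of 44.7 in stimulated diabetic, 53.1 in stimulated control, 23.2 in unstimulated diabetic and 39.5 in unstimulated control libraries. The ranges of stimulated (28.6 to 72.9) and unstimulated libraries (11.4 to 57.2) overlapped, and the effect was 0.55 ± 0.15 (SE, limma adjusted p = 0.00590). The Dusp10 region 50.7 kb from the start had a median of 64.3 in stimulated and 48.6 in unstimulated libraries (effect 0.49 ± 0.16, limma adjusted p = 0.0182). At the start of Dusp10 the medians were 85.6 in stimulated and 77.2 in unstimulated libraries, which did not pass (adjusted p = 0.0902).

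A region 3.96 kb upstream of the start used for the Dusp16 promoter (chr6:134796334-134796740) fell in rank. It lies inside the annotated gene body. Its medians were 28.7 in stimulated diabetic, 34.0 in stimulated control, 53.5 in unstimulated diabetic and 56.3 in unstimulated control libraries. The effect was −0.64 ± 0.16 (SE, limma adjusted p = 0.00278). Dusp16 thus gained a region at the outer end of the gene while a constant one nearer the start ranked lower. In 1 stimulated control library this region was at 61.5, above most unstimulated libraries, so the ranges overlapped.

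At Dusp4, the region at the lower-coordinate end had a median percentile of 5.81 in stimulated and 13.3 in unstimulated libraries (effect −0.49 ± 0.17, adjusted p = 0.0233), and one 44.7 kb away (chr8:34762740-34763113) 14.3 in stimulated and 29.1 in unstimulated libraries (effect −0.49 ± 0.18, adjusted p = 0.0332). A region 35.3 kb from the start of Dusp5 (chr19:53564222-53564621) had 20.3 in stimulated and 34.0 in unstimulated libraries (effect −0.51 ± 0.17, adjusted p = 0.0240), and the one 12.2 kb upstream of Dusp6 had 59.5 in stimulated and 72.6 in unstimulated libraries (effect −0.49 ± 0.18, adjusted p = 0.0371). All adjusted p-values are limma's, and the ranges of both states overlapped at each of these regions. At Dusp4, the first of these calls was lost with plain percentiles.

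The start regions of Dusp5, Dusp6 and Dusp2 were not called. Their median percentiles were 77.1 in stimulated and 63.4 in unstimulated libraries for Dusp5 (limma adjusted p = 0.123), 46.9 in stimulated and 50.1 in unstimulated libraries for Dusp6 (adjusted p = 0.784), and 25.0 in stimulated and 30.3 in unstimulated libraries for Dusp2 (adjusted p = 0.344). Ranked by −log10 q in place of the fold, the Dusp5 start was higher (adjusted p = 0.0369) and the Dusp6 start lower (adjusted p = 0.0223) in stimulated libraries. By the same measure a Dusp10 region 14.8 kb from the start was higher (effect 1.13, adjusted p = 4.460e-06 in limma). By the fold it had median percentiles of 46.5 in stimulated and 28.0 in unstimulated libraries and missed the threshold (effect 0.42 ± 0.17, adjusted p = 0.0550).

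Within diabetic macrophages 1 of the 21 regions, the Dusp8 start, was called higher (limma adjusted p = 0.0471) and 0 lower, beside backgrounds of 4.77% and 5.51%. Within control macrophages the Dusp1 start (adjusted p = 0.00353) and the distal Dusp10 region (adjusted p = 0.0362) were higher and the always-found Dusp16 region lower (adjusted p = 0.0463), beside backgrounds of 9.52% higher and 10.2% lower.

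**Figure D3:**
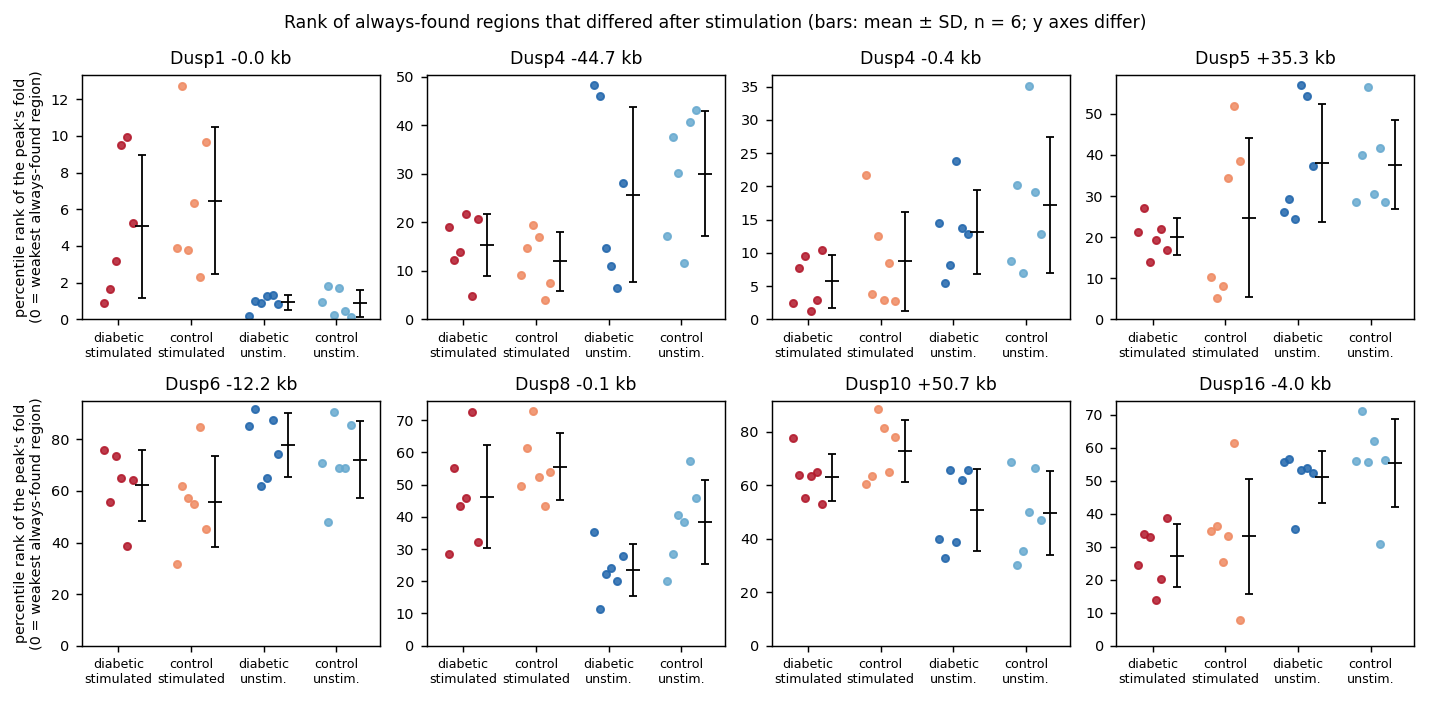
Percentile rank of the peak's fold among 22770 always-found regions (y axis, 0 is the weakest; the axes differ between panels) for the 8 regions called between stimulated and unstimulated libraries. Each point is a library, and the bar beside each group is its mean ± SD (n = 6). The Dusp1 start rises within the lowest percentiles, to at most 12.7, while the always-found Dusp16 region falls to a median of 33.1 in stimulated libraries, against 55.8 in unstimulated ones.

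The third measure was the number of peaks per gene. Dusp4 had 2 to 7 peaks (median 5) in stimulated and 4 to 11 (median 7.5) in unstimulated libraries, with means of 5 ± 1.54 in stimulated and 7.42 ± 1.78 in unstimulated ones (SD, n = 12 each; permutation test with 100000 resamples, adjusted p = 0.0342). The ranges overlapped from 4 to 7 peaks. Dusp4 was the only member to pass in this comparison, in which 1.93% of 16288 genes had more and 6.88% had fewer peaks after stimulation. The call was lost when peaks had to lie within 10 kb (difference of −0.83 peaks) or could lie within 100 kb of the gene (difference of −3.08 peaks). Dusp5 had 8.08 ± 1.98 peaks in stimulated and 10.5 ± 1.73 in unstimulated libraries, the same difference of −2.42, and missed the threshold (adjusted p = 0.0657, permutation test). It passed with lists of equal length, with the stricter −log10 q and within 10 kb.

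The other members had close means. Dusp6 had 7.25 ± 1.22 in stimulated and 7.92 ± 0.793 in unstimulated libraries, Dusp16 had 5.75 ± 1.54 in stimulated and 5.08 ± 0.900 in unstimulated libraries, and Dusp1 had 6.67 ± 1.83 in stimulated and 6.5 ± 0.798 in unstimulated libraries. Dusp10 had 5.58 ± 1.16 in stimulated and 5.42 ± 0.793 in unstimulated libraries, Dusp8 had 2.83 ± 1.03 in stimulated and 2.67 ± 0.888 in unstimulated libraries, and Dusp2 had 3.17 ± 0.577 in both. None of these differences passed (SD, n = 12 each; permutation test). Dusp16, Dusp10 and Dusp1 each had a called region without a called peak number. The genes whose peak number followed that of Dusp4 most closely over the 24 libraries, of 5058 genes with a mean of at least 3 peaks, were Ankrd11 (Pearson r = 0.846), Fcgr2b (r = 0.834) and Npas2 (r = 0.834). These values share the libraries' list lengths and are given as a description.

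**Figure D4:**
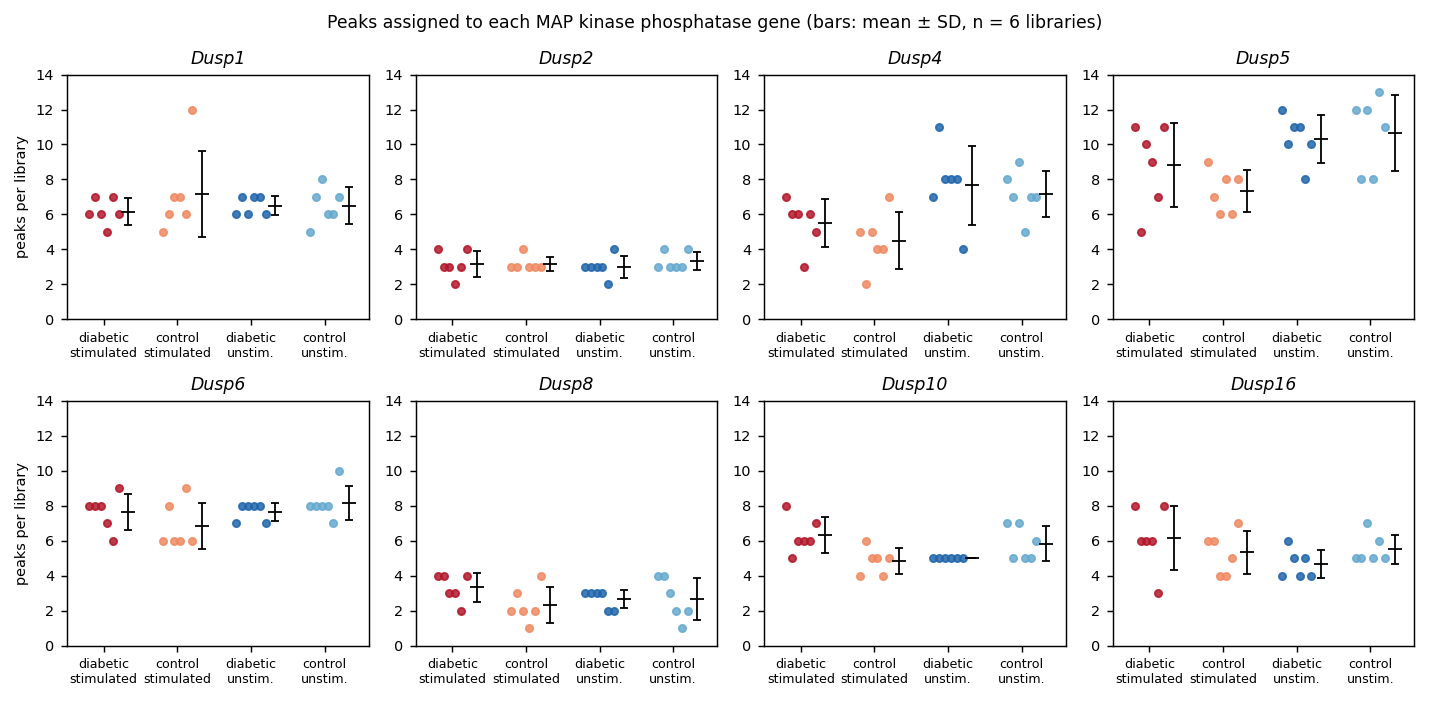
Peaks assigned to each gene in every library (y axis) in the 4 groups, with the mean ± SD (n = 6) as a bar beside each group. The means of Dusp4 and Dusp5 are lower in stimulated than in unstimulated groups of both phenotypes, but the ranges of the states overlap at every gene. In the Dusp1 panel 1 stimulated control library stands out with 12 peaks.

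The next question was whether diabetes changed chromatin at these genes. Between diabetic and control macrophages no region was called in either state. Diabetes and exposure to streptozotocin cannot be told apart in this design. Among stimulated libraries 0 of 10 tested member regions passed, beside a background of 0%, and 0 were at an unadjusted p under 0.05, against 292 of 9681 in the genome. Among unstimulated libraries 0 of 7 passed, beside a background of 0%, and again 0 had an unadjusted p under 0.05, against 137 of 8788 (Fisher's exact test). With 6 against 6 libraries this test cannot give a p under 0.00216. After adjustment a region could pass only if many others also had a low p, and too few did. Even a region found in 6 against 0 libraries would have failed, so the 0 calls do not show that detection was alike. Ranks gave 0 calls of 21 in each state, beside backgrounds of 0% (limma; 0 at an unadjusted p under 0.05 in each). Peak numbers gave 0 calls for the 8 genes in each state, and 0% of all genes were called (exact permutation test over 924 label orders, smallest possible p 0.00216). The same holds for the comparison of states within each phenotype, where 0% of genes passed for peak number in diabetic and in control macrophages, so the 6-against-6 tests called no gene at all. At an unadjusted p under 0.05 they held Dusp10 within diabetic macrophages (p = 0.0152), Dusp4 (p = 0.0281) and Dusp5 (p = 0.0238) within control macrophages, Dusp10 between stimulated diabetic and stimulated control libraries, and no member between the unstimulated groups (exact permutation tests).

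In rank, the lowest unadjusted p was 0.0502, at the Dusp8 start region between the unstimulated groups (limma). In detection, the Dusp8 region 2.69 kb upstream was found in 6 of 6 stimulated diabetic and 2 of 6 stimulated control libraries. Its unadjusted p was 0.0606 (Fisher's exact test), but its number of libraries could not give one under 0.05, so it was not among the tested regions. Among the tested regions, and in peak number, Dusp10 came closest. Its region 18.9 kb into the gene was found in 5 of 6 stimulated diabetic and 1 of 6 stimulated control libraries (unadjusted p = 0.0801, adjusted p = 0.835, Fisher's exact test). Its peak number was 5 to 8 (median 6) in stimulated diabetic and 4 to 6 (median 5) in stimulated control libraries, with means of 6.33 ± 1.03 in stimulated diabetic and 4.83 ± 0.753 in stimulated control ones (SD, n = 6 each; exact permutation test, unadjusted p = 0.0368, adjusted p = 1). Unstimulated libraries went the other way, with 5 peaks in each of the 6 diabetic and 5 to 7 (median 5.5) in control libraries. Lists of stimulated diabetic libraries were longer than those of stimulated control libraries, with medians of 54924.5 peaks in stimulated diabetic and 47299.5 in stimulated control libraries, and the part of list length in this difference was not tested. Summed over the 8 genes, stimulated diabetic libraries held a median of 46 peaks, stimulated control 39.5, unstimulated diabetic 48 and unstimulated control 50.

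Whether the response to stimulation differed between diabetic and control macrophages was tested directly. For detection, 0 of 6 testable member regions passed Zelen's exact test, beside a background of 0%, with 0 at an unadjusted p under 0.05, against 229 of 9353 in the genome. For ranks, 0 of 21 passed the limma interaction, beside a background of 0%, and 1 had an unadjusted p under 0.05. That region lies 6.38 kb upstream of Dusp1. Its median percentile was 16.4 in stimulated diabetic and 8.35 in unstimulated diabetic libraries, and 8.27 in stimulated control and 16.2 in unstimulated control libraries (unadjusted p = 0.0214 in limma). It was named after its values were seen.

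Other genes of the pathway moved in both directions. Pairs such as 11 against 0 give stimulated against unstimulated libraries, of 12 each. Over all 31219 tested regions 9.19% were gained and 18.9% lost. Of the 17 tested regions at the MAP kinases themselves, 2 were gained and 4 lost. Mapk14, which encodes p38 alpha, gained one (11 against 0, adjusted p = 0.000303) and lost one (0 against 10, adjusted p = 0.00128, Fisher's exact test). Of 21 regions at the kinases that phosphorylate them, 2 were gained (Map2k6 and Map2k4) and 4 lost (Map2k1, Map2k4, Map2k5 and Map2k6). At the kinases upstream of those, 1 region of 41 was gained (Map3k5, or ASK1, 12 against 0) and 8 were lost, with losses at Map3k5, Map3k7, Map3k8 and Araf.

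Downstream, kinases that MAP kinases activate had 3 gained and 8 lost of 28 tested regions. Gains lay at Rps6ka5 and Rps6ka2, and losses at Mapkapk2 (0 against 10), Mknk2 (1 against 11), Rps6ka2 and Rps6ka5. Immediate early genes, transcribed within minutes of MAP kinase signalling, had 1 gained (Egr2, 12 against 1) and 6 lost of 29, with losses at Fosb, Junb, Jun and Ier3 among others. Sprouty and Spred genes, which encode other feedback inhibitors of ERK signalling, had 2 gained (Spred1, 12 against 0, and Spry2, 10 against 1) and 5 lost of 22. Losses lay at the same genes, Spry2 (1 against 10) and Spred1 (1 against 9), and at Spred2 (1 against 9).

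Other dual-specificity phosphatases had 1 gained and 6 lost of 17. The gain was at Dusp22 (12 against 5, adjusted p = 0.0235), and losses included Dusp3 (1 against 12, adjusted p = 0.000303), Dusp7 and Dusp22 itself (4 against 12 each, adjusted p = 0.0101, Fisher's exact test). The median difference in detection was −1 library at the MAP kinases and at these other phosphatases, −4 at the immediate early genes and −3 at the remaining lists, against −3 over the 25 member regions and −2 over all tested regions. With full peak lists, these gene lists of all kinds thus held more losses than gains, as the whole genome did. They were not recomputed with peak lists of equal length, where the genome held 3165 gained and 3833 lost regions, against 2868 and 5901.

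**Figure D5:**
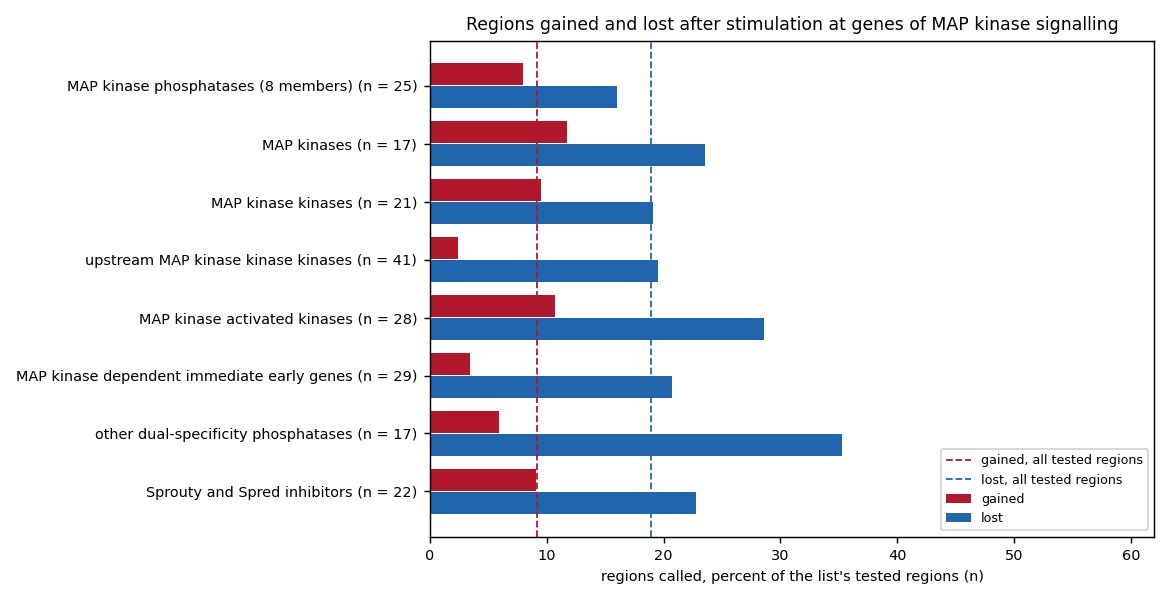
Share of tested regions gained (red) and lost (blue) after stimulation at the 8 MAP kinase phosphatase genes and at 7 other lists of the pathway, in percent of the list's tested regions, whose number n stands beside the name. Dashed lines give the shares over all 31219 tested regions. The member genes lie close to both lines, at 8% gained and 16% lost.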

How the data were processed

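Chromatin was profiled by ATAC-seq in 24 libraries, 6 in each of 4 groups named by the sample titles. Per the labels' protocols, isolated nuclei were transposed, long fragments were removed and short single-end reads were sequenced. The authors deposited 1 narrowPeak list per library, on mm10 per the submitters' processing notes, which name MACS2 2.1.1, Bowtie2 2.2.6, DiffBind 2.4.8, edgeR, Trim Galore 1.8 and FastQC 0.11.3 without their roles. Their settings, and any shift of reads for the transposase, are not stated there. The authors' peaks each carry a score, a fold ratio over local background, a −log10 p and a −log10 q, and these deposited values describe or rank peaks within a library only. The lowest deposited −log10 q was 1.30.

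Peaks overlapping by at least 1 bp were merged, and regions in at least 2 libraries were kept. Genes came from RefSeq GRCm38.p6; in place, 23.7% of summits were at most 1 kb from a gene end, compared with 4.60% once genes were moved by 300 kb. Detection was tested per region with Fisher's exact test (Python 3.11.15, scipy 1.17.1), the interaction with Zelen's test, ranks with limma 3.58.1 (R 4.3.3), and peak numbers with permutation tests, each over the whole table with Benjamini-Hochberg adjustment, after checks on simulated data. Regions named are every called one, each gene's start region and its highest-ranking one; pathway genes are those with a called region, up to 4 per list and direction, except that 1 of them is not reported here; lists of similar genes hold the 3 with the highest correlation. Member regions named without a call that are not the start or highest-ranking one were chosen after their values were seen. The members, lists and tests were chosen with earlier results of these data known. Nearest genes need not be the genes a region acts on, and 12 regions found in 1 library only were not tested. Exons, introns and UTRs were not resolved. Alternatives were lists of equal length, −log10 q of at least 5, coverage of at least 50% of a region, limits of 10 and 100 kb, at least 4 libraries, adjustment over all regions, ranks of −log10 q, plain percentiles and a replicate block.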

Additional observations from a re-analysis of the deposited data

Results flagged for a closer look

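In 84 groups of 6 libraries (peak numbers of the 8 genes and percentile ranks of the named regions), 6 had a library standing apart from the other 5 by Dixon's test. Chance alone flags about 1 in 20 groups of continuous values. That rate need not hold for peak numbers, which are small whole numbers with many ties. Stimulated control replicate 6 held 12 peaks at Dusp1, against 5 to 7 in the other stimulated control libraries. Stimulated control replicate 3 held 4 peaks at Dusp2, against 3 in each of the others. Unstimulated control replicate 6 held 10 peaks at Dusp6, against 7 to 8. The Dusp6 start region was at the 73.5 percentile in stimulated control replicate 4, against 45.6 to 55.8 in the others. The Dusp5 start region was at 56.9 in stimulated diabetic replicate 1, against 77.0 to 88.7. The region 3.96 kb upstream of the start used for the Dusp16 promoter was at 35.4 in unstimulated diabetic replicate 3, against 52.3 to 56.5 in the others. No difference between the diabetic and the control response passed its test.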

How the results depend on the processing

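The pooled comparison of detection gave 6 calls among 25 tested member regions and between 4 and 7 under the alternatives. Only allowing 100 kb gave 10 (2 gained and 8 lost), of 37 tested, with the genome unchanged (2868 gained and 5901 lost of 31219). Lists of equal length gave 7 of 19 (genome 3165 gained and 3833 lost of 24014). A −log10 q of at least 5 gave 7 of 20 (1908 and 6111 of 25793), and 50% coverage 6 of 31 (2084 and 4270 of 38189). Adjustment over all regions gave 5 of 70, the 10 kb limit 6 of 16 and the replicate block 4 of 12 (2222 and 4381 of 19048). Of the 8 alternatives, 3 (10 kb, 100 kb, at least 4 libraries) leave the test of a called region identical. Under the other 5, the Dusp1 loss and the Dusp16 gain were called in 5, the Dusp5 loss at 18.6 kb in 4, the Dusp4 loss in 3, the Dusp5 loss at the start in 2 and the Dusp10 gain in 0. Lists of equal length, shortened to 41385 peaks, also called the Dusp2 gain and the Dusp6 loss given above and losses 49.4 kb upstream of Dusp5 (3 stimulated against 12 unstimulated libraries, adjusted p = 0.00340) and 45.4 kb from Dusp4 (1 against 8, adjusted p = 0.0412, Fisher's exact test). With 50% coverage a Dusp10 region 32.7 kb from the start was lost (2 against 10, adjusted p = 0.0251), the Dusp2 region was gained and that 49.4 kb from Dusp5 lost; −log10 q of at least 5 called the losses at Dusp6, Dusp5 (49.4 kb) and Dusp4 (45.4 kb). In diabetic macrophages 0 calls of 8 tested became 4 of 10 with lists of equal length. They became 1 of 9 with −log10 q of at least 5 and 1 of 12 within 100 kb, beside the genome counts given above. In control macrophages 3 calls of 13 tested became 1 of 5 with −log10 q of at least 5 (genome 636 gained and 3506 lost of 10220). They became 1 of 11 with 50% coverage (876 and 3452 of 14041) and 0 of 70 with adjustment over all regions. The replicate block left 1 of 2 (441 and 1078 of 1818). The 8 rank calls of 21 regions became 5 within 10 kb, where the number of member regions ranked is not given. The genome stayed at 3347 higher and 3565 lower of 22770 regions. Peak number, with 1 call, gave 3 with lists of equal length, 2 with −log10 q of at least 5 and 0 with the replicate block. The share of all genes called under these settings is not given, so these counts cannot be set beside a background. Adjustment over all 80598 regions left 1706 gained and 2974 lost in the genome, against 2868 and 5901, and 0 within either phenotype. Of the other 71 recomputed counts, 55 were 0 in both fits, mostly in comparisons without a call in the genome, which says nothing of stability, and 16 stayed within 1.5 times the reported one. For single regions and genes, 57 recomputed values kept their side of the threshold (9 of them with an identical test), 26 lost a call, 3 gained one, and no direction reversed. Libraries with the same replicate number did not deviate together (correlations of −0.055 to 0.061 in diabetic and −0.021 to 0.034 in control macrophages; a stimulated library correlated best with its own number in 1 of 6 and 0 of 6 cases), so the numbers were not taken as pairs. The replicate block left 4 pooled detection calls and 7 rank calls of 21 regions (without the Dusp4 end and Dusp6 regions, with a Dusp10 region 14.8 kb from the start). The share of all regions called in rank under the block is not given, so the 7 cannot be set beside a background. In detection between diabetic and control macrophages the block could test only 1 member region (stimulated) and 0 (unstimulated). In the genome it left 2222 gained and 4381 lost pooled, and 441 and 1078 in control macrophages. Without read totals, depth limits what a missing peak shows. The cause of these shifts was not tested.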

Other observations

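Beyond the 50 kb limit, the region with the clearest separation near a member gene lay 65.3 kb from the body of Dusp6, the ERK phosphatase gene (chr10:99332663-99333003). It had a peak in 0 of the 12 stimulated libraries and in all 12 unstimulated ones, so no library overlapped between the states (adjusted p = 6.174e-05, Fisher's exact test), and it was lost in diabetic (0 of 6 stimulated against 6 of 6 unstimulated, adjusted p = 0.0243) and in control macrophages (0 of 6 stimulated against 6 of 6 unstimulated, adjusted p = 0.0173). Other losses in that outer zone were 86.6 kb from Dusp6 (5 stimulated against 12 unstimulated libraries, adjusted p = 0.0235), 67.1 kb from Dusp4 (6 stimulated against 12 unstimulated, adjusted p = 0.0489) and 93.8 kb from Dusp10 (1 stimulated against 9 unstimulated, adjusted p = 0.0184). These regions lie outside the rule that chose the members and were named after their values were seen. With the limit at 100 kb, 2 of 37 tested member regions were gained and 8 lost, against 2 and 4 of 25 within 50 kb. Over all 31219 tested regions 9.19% were gained and 18.9% lost.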
